A study of Homo sapiens with 9 samples.

Results

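Of the 54613 probe sets on the array that are not controls, 11721 (21.5%) were not listed with a gene symbol in the platform annotation used here, 41091 had 1 symbol and 1801 had several. The 11721 are described here as unnamed probe sets, chosen from the annotation alone and from no measured value. Unnamed means that this annotation does not list them. It does not mean that no gene lies at their target, and where each target lies in the genome, in a gene or outside one, was not analysed here. RNA came from U937, a human cell line of monocytic character that the labels call a lymphoma line. The control cells were untreated and kept at 37 °C. The 8 heated samples received 15 min at either 42 or 44 °C and were then returned to 37 °C, with recovery times of 0, 1, 3 and 6 h. No genotype, transfection or drug is given for any of the 9 samples, and the control carries no time. Each condition was measured on 1 Human Genome U133 Plus 2.0 array, so no test was run, and what belongs to an array and what belongs to its condition cannot be told apart.

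Oligonucleotide arrays of this kind were designed from clusters of expressed sequence tags as well as from known messenger RNAs. Probe sets that stay without a gene name often come from such tags, and their targets can lie in introns, on the opposite strand of a gene, beyond an annotated gene end or between genes. Transcripts of these kinds are commonly less abundant than spliced messenger RNA, and unspliced precursors are short-lived. Heat stress is known as a treatment that inhibits splicing and lets transcription run past gene ends, and that represses many genes while heat shock factor 1 induces the chaperone genes. These points are background: the arrays measured here do not say to which kind a given unnamed probe set belongs.

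Values are linear signals, multiplied on each array by 1 factor so that the 2% trimmed mean was 100. The floor was 12.5, the median over all arrays, and a lower signal was set to that level and is called at the floor. A probe set rose or fell where its signal differed by at least 2-fold (a log2 fold of 1), and where 1 of the 2 arrays was at the floor the fold is given as "at least". Before scaling, the trimmed means ran from 101 to 211. The ratio of the 3′ to the 5′ control probe set was 1.18 to 1.36 for ACTB and 0.939 to 1.13 for GAPDH. Of 12 myeloid marker genes with a probe set, 9 were off the floor on every array, while MPO, CD14 and FCGR1A were at the floor on every array, and the summed signal of the list was 11339 to 17047. Summed signals of other cell types were lower, at 0 to 45.3 for 6 T cell genes, 57.3 to 128 for 5 B cell genes, 0 to 268 for 7 epithelial and fibroblast genes and 0 to 28.9 for 3 erythroid genes. In such bulk RNA, fewer cells with a transcript and less of it per cell cannot be told apart.

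Most unnamed probe sets gave little signal. At the floor on all 9 arrays were 5641 of them (48.1%), a further 3778 (32.2%) were off it on some arrays, and 2302 (19.6%) were off it on all. Among probe sets with 1 symbol the corresponding shares were 31.6%, 23.6% and 44.8%. The median over probe sets of the mean scaled signal was 6.19 for the unnamed and 16.3 for those with 1 symbol. A mean signal over 100 was reached by 744 unnamed probe sets (6.35%) and by 26.6% of those with 1 symbol. In type, 9788 of the unnamed (83.5%) had a plain identifier ending in _at, which marks probes matching a single target in the design, against 65.1% of those with 1 symbol. Identifiers ending in _s_at, whose probes are shared by several transcripts, made up 6.79% of the unnamed and 24.2% of those with 1 symbol.

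The unnamed probe sets were not of one kind. They were spread unevenly over the identifier numbers: among 64 blocks of 1000 consecutive numbers with at least 100 probe sets, the share that was unnamed ran from 2.80% to 68.9%, with a median of 18.6%. A block is called sparsely annotated where at least 20% of its probe sets were unnamed. This bound was chosen after the annotation was seen and with earlier results of these data known. The 31 sparsely annotated blocks held 9284 unnamed probe sets and all others held 2437. In the sparse blocks 13.7% of the unnamed were off the floor on all arrays, close to the 12.9% among 4457 probe sets of named genes that do not code for protein. In the other blocks it was 42.4%, where it was 44.8% of the probe sets with 1 symbol of all blocks together. Of the 13297 probe sets with 1 symbol in sparse blocks it was 21.8%, so that of the named in the other blocks alone was above 44.8%. The unnamed were thus less often off the floor than the named in both kinds of block. Of the 132 unnamed probe sets with a mean signal over 1000, only 20 lay in sparse blocks and 112 in the others.

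The share of unnamed probe sets off the floor differed from array to array. It was 31.1% (3648 probe sets) in the control. After 42 °C it was 30.5% at 0 h, 35.5% at 1 h, 31.9% at 3 h and 36.8% at 6 h. After 44 °C it was 34.2% at 0 h, 33.9% at 1 h, 29.4% at 3 h and 29.4% at 6 h. The array of 42 °C and 6 h had the most, with 4308 probe sets, and that of 44 °C and 6 h the fewest, with 3445. For probe sets with 1 symbol the share ran from 53.1% at 44 °C and 6 h to 56.6% at 42 °C and 6 h. On the same arrays it was 20.5% and 26.9% for those of genes that do not code for protein. Over all probe sets it was 48.3% and 52.6% there. The lowest and the highest array were thus the same in each of these classes as for the unnamed.

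The unnamed probe sets of sparse blocks moved as a group between arrays. For the 1269 of them off the floor on all 9 arrays, each log2 signal was set against the probe set's own mean over the arrays. The median deviation in the control was -0.04 (quartiles -0.33 and 0.20). After 42 °C it was -0.22 at 0 h (-0.55 and 0.07), 0.28 at 1 h (-0.02 and 0.60), -0.13 at 3 h and 0.24 at 6 h (-0.09 and 0.54). After 44 °C it was 0.17 at 0 h (-0.12 and 0.45), 0.14 at 1 h, -0.20 at 3 h (-0.46 and 0.06) and -0.13 at 6 h. Directly after heating, the group was thus below its mean level at 42 °C and above it at 44 °C, and 6 h later the order was the other way round. Probe sets with 1 symbol, weighted to the same distribution of signal, stayed between -0.05 and 0.08 on all arrays. The 1033 unnamed probe sets of the other blocks stayed between -0.07 and 0.05. Named genes that do not code for protein, weighted likewise (575 probe sets), had 0.06 in the control, -0.05, 0.09, -0.08 and 0.06 after 42 °C, and 0.07, 0.11, -0.05 and -0.15 after 44 °C. At 44 °C and 1 h and at 44 °C and 6 h these were near the values of the sparse blocks, and on the other heated arrays they were smaller in size with the same sign.

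**Figure D1:**
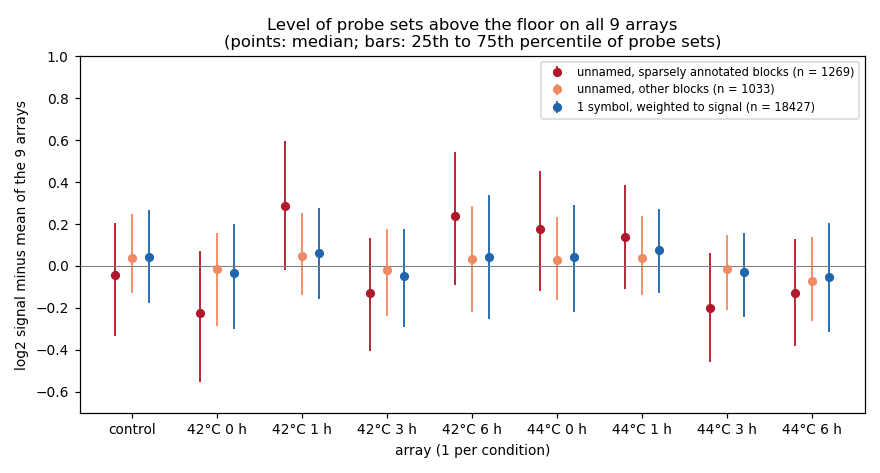
Median deviation of log2 signal from each probe set's own mean over the 9 arrays (vertical axis, log2 units) for each array (horizontal axis), for unnamed probe sets of sparsely annotated blocks (n = 1269), for those of other blocks (n = 1033) and for probe sets with 1 symbol weighted to the same signal; bars span the quartiles over probe sets. The sparse blocks range from -0.22 (42 °C, 0 h) to 0.28 (42 °C, 1 h), while the other classes stay between -0.07 and 0.08, and with quantile normalisation the sparse blocks range from -0.13 to 0.18 with the same sign on every array.

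The signs held on each of the 9 arrays with quantile normalisation, where the medians over 1296 probe sets of sparse blocks were smaller in size: -0.05 in the control, -0.13, 0.18, -0.06 and 0.17 after 42 °C, and 0.14, 0.07, -0.13 and -0.07 after 44 °C. Relative to the control and with the trimmed-mean scaling, the medians after 42 °C were -0.12, 0.24, -0.08 and 0.29 at 0, 1, 3 and 6 h. After 44 °C they were 0.22, 0.14, -0.13 and -0.06, of which the last turned to 0.00 with quantile normalisation. Some measures of the arrays themselves also differed. The deposited trimmed mean was 165 in the control, 160, 140, 101 and 109 after 42 °C, and 172, 211, 205 and 191 after 44 °C. A control probe set for the 5′ part of the large ribosomal RNA had a scaled signal of 127 in the control, 1246, 1366, 1037 and 309 after 42 °C, and 11365, 9668, 5706 and 266 after 44 °C. The probe set for the middle part of that RNA had another course, with 580 in the control, 1965, 2033, 2408 and 2142 after 42 °C, and 2673, 1831, 1736 and 2673 after 44 °C. The part of any of these in the shift of the group was not tested.

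On several arrays the shift was larger in blocks with a larger share of unnamed probe sets. In blocks with under 10% unnamed, the median deviation of the 714 unnamed probe sets was 0.02 at 42 °C and 1 h. It was 0.13 where 10 to 20% were unnamed (316 probe sets), 0.26 for 20 to 35% (391), 0.27 for 35 to 45% (381) and 0.31 for 45% or more (500). At 42 °C and 0 h the same classes gave 0.01, -0.13, -0.19, -0.21 and -0.25, and at 44 °C and 0 h 0.02, 0.07, 0.14, 0.19 and 0.22. At 44 °C and 1 h they gave 0.02, 0.08, 0.15, 0.12 and 0.14, with no further increase from the 20 to 35% class on. Named probe sets of the same blocks, weighted to the signal of the unnamed, followed with smaller values: at 42 °C and 1 h they gave 0.01, 0.05, 0.08, 0.08 and 0.11.

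**Figure D2:**
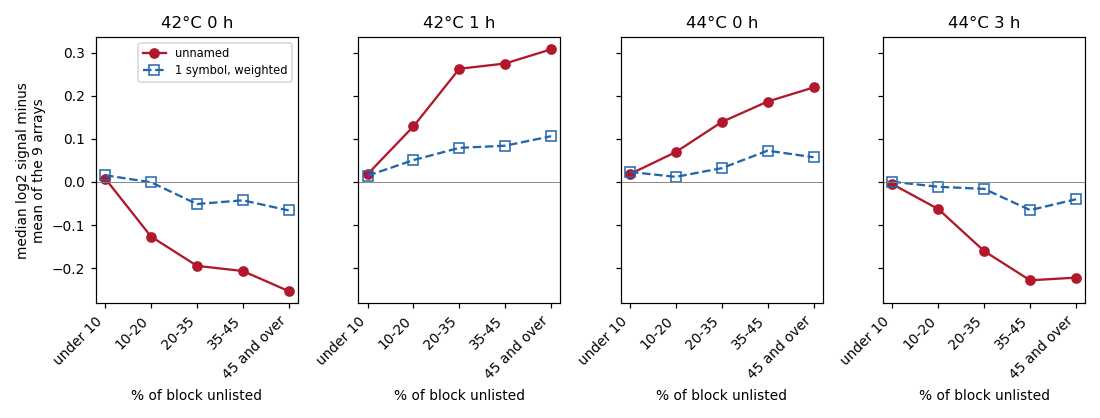
Median deviation of log2 signal from the 9-array mean (vertical axis) by the share of unnamed probe sets in the identifier block (horizontal axis), for unnamed probe sets and for probe sets with 1 symbol weighted to their signal, on 4 arrays. At 42 °C and 1 h the unnamed go from 0.02 to 0.31 and the named from 0.01 to 0.11; at 42 °C and 0 h the unnamed go from 0.01 to -0.25.

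Within the sparse blocks the shift at 42 °C and 1 h was found over the range of signal and of identifier, and on other arrays less evenly. At 42 °C and 1 h the median deviation was 0.16 for 170 probe sets with a mean signal under 25, 0.30 for 597 between 25 and 50, 0.37 for 331 between 50 and 100, and 0.14 for 171 above 100. It was 0.30 for 248 probe sets with a 7-digit identifier and 0.28 for 1021 with a shorter one. At 42 °C and 6 h these identifiers had 0.13 and 0.26. The 171 above 100 had 0.06 and 0.03 at 0 and 1 h after 44 °C, where the group had 0.17 and 0.14. At 42 °C and 3 h they had -0.02, where the group had -0.13. Types of probe set differed. The 1026 with a plain _at ending ran from -0.26 (42 °C, 0 h) to 0.30 (42 °C, 1 h), close to the group as a whole. The 64 ending in _s_at ran from -0.14 (44 °C, 3 h) to 0.07 (44 °C, 0 h), with 0.02 at 42 °C and 1 h. The 155 ending in _x_at had 0.25 at 42 °C and 1 h, but 0.06 at 42 °C and 3 h and 0.01 at 44 °C and 1 h, where the group had -0.13 and 0.14. The 24 ending in _a_at had 0.40 at 42 °C and 1 h and -0.03 at 44 °C and 0 h.

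Rises and falls against the control were counted over all 11721 unnamed probe sets and set beside probe sets with 1 symbol, weighted to the same distribution of mean signal over 20 bins and a class at the floor throughout. The share over all 54613 probe sets is given as the background. The 8 comparisons use the same control, so their counts are not independent.

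Directly after 42 °C, falls outnumbered rises among the unnamed and over all probe sets alike. The unnamed that fell were 318 (2.71%), where 1.75% of the weighted named probe sets and 2.52% of all probe sets did. The unnamed that rose were 120 (1.02%), against 0.94% of the weighted named and a background of 1.08%, so that both shares were near the background over all probe sets. At 1 h the balance was reversed: 520 rose (4.44%) against 1.91% of the weighted named and a background of 2.66%. Falls numbered 103 (0.88%), against 1.13% and a background of 1.34%. Of the 520 that rose at 1 h, 79 rose by at least 4-fold and 166 are bounds.

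At 3 h after 42 °C the unnamed were near the weighted named probe sets in both directions. They rose in 189 cases (1.61%, against 1.52% and a background of 1.86%) and fell in 250 (2.13%, against 2.04% and a background of 2.69%). At 6 h they rose in 410 cases (3.50%), against 2.40% of the weighted named and a background of 2.99%. They fell in 114 (0.97%), against 1.69% and a background of 2.04%. Set against weighted non-coding genes, the shares at 1 h were 4.44% against 2.42% for rises, and at 0 h 2.71% against 2.66% for falls.

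After 44 °C the rises came at the first times. At 0 h 264 unnamed probe sets rose (2.25%), against 1.07% of the weighted named and a background of 1.32%, and 92 fell (0.78%, against 0.96% and a background of 1.16%). At 1 h 256 rose (2.18%), against 0.93% and a background of 1.27%, and 71 fell (0.61%, against 0.53% and a background of 0.588%). At 3 h the larger side was falls, with 240 (2.05%, against 1.29% and a background of 1.70%), where 115 rose (0.98%, against 0.84% and a background of 1.09%). At 6 h 117 rose (1.00%), against 1.70% and a background of 2.11%, and 213 fell (1.82%, against 1.89% and a background of 2.48%). The balance depends on the scaling: after 44 °C rises made up 32.4% of the calls at 3 h and 35.5% at 6 h. With quantile normalisation these were 42.9% (140 rises, 186 falls) and 48.6% (156 rises, 165 falls). After 42 °C the share went likewise from 27.4% to 37.3% at 0 h and from 43.1% to 49.8% (217 rises, 219 falls) at 3 h. On the remaining heated arrays it was 74.2% to 83.5%, and 69.0% to 76.0% with quantile normalisation.

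**Figure D3:**
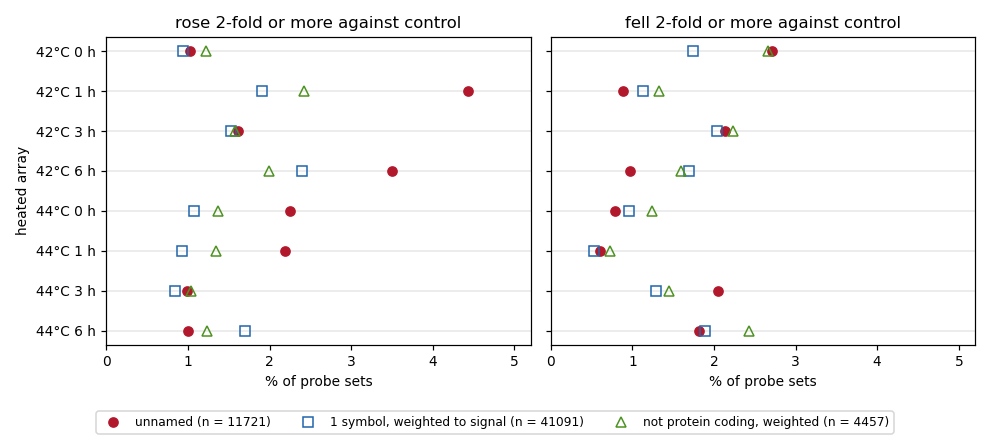
Percentage of probe sets that rose (left panel) or fell (right panel) by at least 2-fold against the control on each heated array, for unnamed probe sets (n = 11721), probe sets with 1 symbol (n = 41091) and those of genes that do not code for protein (n = 4457), the last 2 weighted to the signal of the unnamed. Rises of the unnamed stand at 4.44% at 42 °C and 1 h and falls at 2.71% at 42 °C and 0 h; there is 1 array per row and no error bar.

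The difference from named probe sets was widest, in percentage points, at middle signals. At 42 °C and 1 h, 95 of 549 unnamed probe sets with a mean signal of 50 to 100 rose (17.3%), as did 3.65% of 3616 named ones of that signal. Among the 333 of these that lie in sparse blocks, 81 rose (24.3%). Between 25 and 50 the shares were 17.5% and 6.82%, and under 25 they were 5.93% and 3.50%. Above 100, 32 of 720 rose (4.44%), against 1.47% of the named. At 44 °C and 0 h the rises between 50 and 100 were 8.01% of the unnamed and 1.22% of the named.

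The size of the excess depended on the floor and on the class compared. At 42 °C and 1 h the unnamed rose 2.32 times as often as the weighted named probe sets, which became 1.26 times under a lower floor (the 25th percentile of the signals) and 3.55 times under a higher one (2 times the median). At 44 °C the factor was 2.10 at 0 h and 2.35 at 1 h, and 1.14 and 1.18 with the lower floor. Against non-coding genes alone the factors were 1.83, 1.65 and 1.62. With unnamed and named probe sets both taken from sparse blocks they were 1.98, 1.92 and 2.26.

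The times at which rises peaked are given beside those of named probe sets without weighting for signal, and the named ones are brighter (a median of mean signals of 16.3 against 6.19). At 42 °C, 821 unnamed probe sets rose at 1 or more times, and 448 of these (54.6%) were highest at 1 h, against 27.2% of 2121 named ones. A further 263 (32.0%) were highest at 6 h, against 40.0%. At 44 °C, 526 unnamed probe sets rose (4.49%), near the share of the named (1676, or 4.08%). Of the 526, 218 (41.4%) were highest at 0 h, against 21.3% of the 1676, while 76 (14.5%) were highest at 6 h, against 51.3%. At 42 °C, 564 of the 11721 unnamed fell at 1 or more times, as did 2559 of the 41091 named. Of the 564, 272 (48.2%) were lowest at 0 h, against 30.1% of the named that fell. Where a probe set was at the floor at several times, the earliest was counted as the lowest. Both shares for 0 h can therefore be too high, and how many such ties each class had was not counted.

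Few unnamed probe sets moved on every heated array. Over the 8 comparisons, 1029 (8.78%) rose at least at 1 of them, 139 at 4 or more and 6 at all 8. For falls these numbers were 720 (6.14%), 92 and 1. The named probe sets rose on 1 or more arrays in 6.78% of cases and fell in 8.07%. On different arrays, 55 unnamed probe sets (0.47%, named 0.28%) both rose and fell. The corresponding named counts were 411 (1.00%, against 1.19% of the unnamed) for rises at 4 or more arrays and 5 for rises at all 8, and 343 (0.83%, against 0.78%) and 1 for falls. At the floor in the control and off it on all heated arrays were 48 unnamed probe sets (0.41%, named 0.26%), and the opposite was seen for 77 (0.66%, named 0.46%).

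The probe sets that rose most are given next with every array's signal, by their identifiers, since no gene name was available for them. They were picked for the size of their rise, so the values describe them. For comparison, the chaperone gene HSPA6, a strictly heat-inducible HSP70, had a signal of 138 in the control, 4751, 7245, 10652 and 4525 after 42 °C, and 131, 3988, 6645 and 6587 after 44 °C.

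Probe set 241940_at rose on all 8 heated arrays. Its signal was 20.3 in the control, 179, 406, 187 and 111 at 0, 1, 3 and 6 h after 42 °C, and 69.8, 106, 192 and 151 after 44 °C. Every heated array was above the control, by 3.44-fold (44 °C, 0 h) to 20.01-fold (42 °C, 1 h). The peak came at 1 h after 42 °C and at 3 h after 44 °C. The other 5 that rose on all 8 arrays were 1570197_at, 238032_at, 242836_at, 243675_at and 244019_at. For 1570197_at the signals were 21.3 in the control, 104, 187, 132 and 79.2 after 42 °C, and 84.5, 86.8, 108 and 59.6 after 44 °C. Its rises ran from 2.80-fold (44 °C, 6 h) to 8.80-fold (42 °C, 1 h), and its 44 °C values lay below those of 42 °C at each time. Probe set 242836_at went from 20.4 to 71.8, 133, 69.9 and 44.2 after 42 °C and to 44.7, 82.7, 57.4 and 53.3 after 44 °C. The highest array for each of these 5 was that of 42 °C and 1 h.

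Probe set 232773_at, which rose on 7 of the 8, had 22.6 in the control, 58.3, 198, 141 and 75.1 after 42 °C, and 39.2, 58.7, 128 and 120 after 44 °C. It was 8.77-fold above the control at 42 °C and 1 h and 1.73-fold above it at 44 °C and 0 h.

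The probe sets whose signals are given above were higher at 42 °C than at 44 °C at 0 h, and in the next ones this gap was wider. Probe set 236699_at had a signal of 14.6 in the control, 137, 336, 116 and 49.1 after 42 °C, and 13.3, 137, 103 and 38.9 after 44 °C. At 0 h it was 9.42-fold above the control at 42 °C and 1.10-fold below it at 44 °C, and 1 h later it was 23.1-fold and 9.36-fold above. Probe set 243791_at had 15.6 in the control, 174, 310, 107 and 31.0 after 42 °C, and 34.8, 193, 130 and 51.0 after 44 °C. Its 0 h signal was 5.00-fold lower at 44 °C than at 42 °C, and both courses peaked at 1 h. Probe set 1560792_at had 20.1 in the control, 148, 125, 140 and 33.8 after 42 °C, and 23.0, 79.5, 165 and 127 after 44 °C. At 42 °C it was down to 1.68-fold at 6 h, and at 44 °C it still stood at 6.32-fold.

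The brightest of these was 243489_at, with 58.2 in the control, 147, 442, 263 and 124 after 42 °C, and 104, 412, 694 and 267 after 44 °C. The 1 h values of both temperatures were alike (7.60-fold and 7.08-fold above the control), and at 3 h the 44 °C array was 2.64-fold above that of 42 °C.

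**Figure D4:**
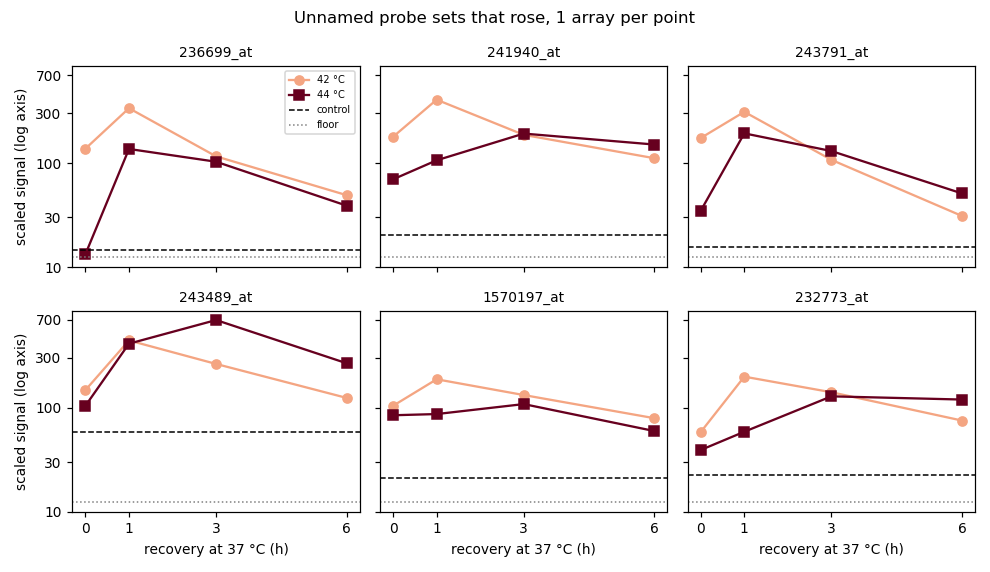
Scaled signal (log axis) by hours of recovery at 37 °C for 6 unnamed probe sets that rose, after 42 °C and after 44 °C, 1 array per point; the dashed line is the control array and the dotted line the floor of 12.5. At 0 h, 236699_at and 243791_at are far higher after 42 °C than after 44 °C (137 and 13.3, 174 and 34.8), and all 6 peak at 1 h on the 42 °C arrays.

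Other rises started from the floor, so that their folds are bounds. Probe set 232369_at was at the floor in the control, at 61.5, 186, 139 and 51.7 after 42 °C, and at 24.5, 32.9, 117 and 60.7 after 44 °C, a rise of at least 14.8-fold at 42 °C and 1 h. Probe set 241420_at was at the floor in the control and at 44 °C and 0 h, at 90.4, 108, 108 and 79.6 after 42 °C, and at 31.3, 46.3 and 63.3 at the later times after 44 °C. Probe set 1568765_at was at the floor on the same 2 arrays, at 26.1, 128, 65.1 and 51.8 after 42 °C, and at 37.6, 40.5 and 17.4 later after 44 °C. All of these had their highest or near-highest signal at 42 °C and 1 h.

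The rises at 44 °C and 0 h had another course. Probe set 1562067_at had 18.6 in the control, 36.8, 60.4, 50.6 and 21.6 after 42 °C, and 105, 108, 34.5 and 16.6 after 44 °C. It was 5.66-fold above the control directly after 44 °C and 1.12-fold below it at 6 h. Probe set 239886_at had 14.6 in the control, 38.6, 55.1, 25.4 and 49.2 after 42 °C, and 61.0, 48.0, 25.6 and 38.7 after 44 °C, with its highest value at 44 °C and 0 h. At 42 °C and 6 h a large rise was that of 233445_at, with 63.4 in the control, 19.99, 105, 90.4 and 259 after 42 °C, and 52.2, 37.4, 47.6 and 174 after 44 °C. It had fallen 3.17-fold at 42 °C and 0 h and stood 4.08-fold above the control 6 h later.

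Falls of at least 4-fold numbered 16 at 42 °C and 0 h, 9 at 44 °C and 3 h, and 1 to 5 on each of the other heated arrays. The unnamed share was 2.09 and 2.54 times that of the weighted named on the first 2, and 0.529 to 1.57 times on the others. The share over all probe sets is not given for falls of this size. Probe set 1562194_at had a signal of 102 in the control, 14.0, 34.3, 40.3 and 135 after 42 °C, and 79.5, 106, 26.5 and 49.2 after 44 °C. It was 7.30-fold below the control at 42 °C and 0 h and 3.85-fold below it at 44 °C and 3 h, with 1.32-fold above it at 42 °C and 6 h. A like course was seen for 239296_at, with 112 in the control, 29.9, 43.0, 59.9 and 144 after 42 °C, and 72.5, 75.8, 23.0 and 47.1 after 44 °C. Probe set 242261_at had 66.7 in the control, 12.6, 60.3, 76.3 and 154 after 42 °C, and 39.1, 33.1, 56.6 and 74.7 after 44 °C. It fell 5.31-fold at 42 °C and 0 h and stood 2.31-fold above the control at 6 h.

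Other falls were largest at later times. Probe set 236229_at had 54.1 in the control, 40.5, 43.7, 12.7 and 41.0 after 42 °C, and 105, 47.5, 27.6 and 31.1 after 44 °C. Its low value was that of 42 °C and 3 h alone, 4.24-fold below the control. Probe set 243740_at had 59.1 in the control, 39.3, 33.1, 20.6 and 23.2 after 42 °C, and 26.2, 33.0, 33.9 and 14.1 after 44 °C, and was below the control on all heated arrays, by 1.50-fold to 4.20-fold.

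Some probe sets fell at 0 h at both temperatures. Probe set 242398_x_at, whose _x_at ending marks probes that can bind other transcripts, had 119 in the control, 22.5, 99.6, 124 and 132 after 42 °C, and 26.9, 91.5, 120 and 109 after 44 °C. The low values were those of the 0 h arrays, 5.29-fold and 4.42-fold below the control, and the other 6 heated arrays were within 1.30-fold of it. Probe set 238156_at had 220 in the control, 64.7, 169, 137 and 218 after 42 °C, and 65.3, 75.8, 115 and 210 after 44 °C. It was 3.40-fold and 3.36-fold lower at 0 h and returned to within 1.05-fold of the control by 6 h.

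A fall on every heated array was uncommon. The only unnamed probe set that fell on all 8 heated arrays was 1564776_at, with 73.1 in the control, the floor, 27.8, 25.2 and 35.9 after 42 °C, and 25.8, 28.8, 16.2 and the floor after 44 °C. Its falls ran from 2.04-fold (42 °C, 6 h) to at least 5.83-fold. Probe set 1558605_at had 58.3 in the control, 20.5, 16.2, 13.2 and 25.8 after 42 °C, and 30.2, 28.5, 13.2 and the floor after 44 °C, and was below the control on every heated array.

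**Figure D5:**
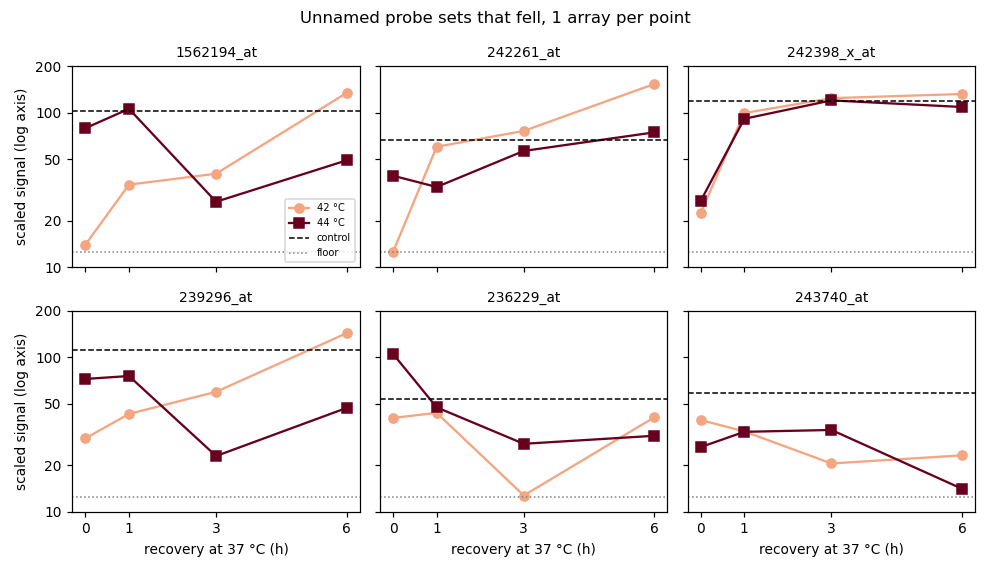
Scaled signal (log axis) by hours of recovery at 37 °C for 6 unnamed probe sets that fell, after 42 °C and after 44 °C, 1 array per point; the dashed line is the control array and the dotted line the floor of 12.5. The lowest points of 242398_x_at are at 0 h at both temperatures (22.5 and 26.9), those of 1562194_at and 239296_at are at 0 h after 42 °C (14.0 and 29.9) and at 3 h after 44 °C (26.5 and 23.0), and 243740_at stays below the control throughout.

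The array of 44 °C was also set against that of 42 °C at each time, which uses no control. At 0 h 508 unnamed probe sets were at least 2-fold higher at 44 °C (4.33%), against 1.59% of the weighted named and a background of 2.38%, and 77 were lower (0.66%, against 0.74% and a background of 0.809%). At 1 h the sides were reversed, with 102 higher (0.87%, against 0.91% and a background of 1.03%) and 258 lower (2.20%, against 1.36% and a background of 1.65%). At 3 h 87 were higher (0.74%, against 0.85% and a background of 0.983%) and 132 lower (1.13%, against 0.96% and a background of 1.06%), near the background. At 6 h 56 were higher (0.48%, against 0.72% and a background of 0.786%) and 427 lower (3.64%, against 1.80% and a background of 2.24%). The factor over the weighted named probe sets depended on the floor and the class. For the higher at 0 h it was 2.73, 1.35 under the lower floor and 1.88 against non-coding genes. For the lower at 6 h it was 2.02, and 1.17 and 1.45 in the same settings. The share of calls that were higher at 6 h was 11.6%, and 22.8% with quantile normalisation (87 higher, 295 lower).

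The sets of 0 h and 6 h, which share no array, had 79 probe sets that were higher at 44 °C at 0 h and lower there at 6 h. They are 15.6% of the first list and 18.5% of the second. For named probe sets the same overlap was 60, or 7.92% of each list. These shares depend on the size of the lists. Of all unnamed probe sets 4.33% were higher at 0 h and 3.64% lower at 6 h. Of all named probe sets 1.84% were higher at 0 h and 1.84% lower at 6 h. The larger overlap of the unnamed thus went with lists that were larger relative to their class.

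The 3 members that were higher at 44 °C at 0 h by the widest gap, off the floor on both arrays, had fallen at 42 °C and risen at 44 °C. Probe set 242172_at had 79.6 in the control, 27.0, 89.0, 67.3 and 122 after 42 °C, and 195, 124, 68.4 and 106 after 44 °C. The 44 °C array was 7.25-fold above that of 42 °C at 0 h and within 1.40-fold of it later. Probe set 1558836_at had 53.5 in the control, 16.2, 82.0, 42.6 and 83.1 after 42 °C, and 115, 48.1, 26.0 and 54.8 after 44 °C. Probe set 1562505_at had 48.1 in the control, 17.8, 31.4, 52.7 and 76.9 after 42 °C, and 121, 28.3, 22.4 and 70.6 after 44 °C. In all 3 the control lay between the arrays of 0 h.

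With the 0 h array of the same temperature as the baseline, the courses of both temperatures use separate arrays. After 42 °C the unnamed rose from 0 h to 1 h in 680 cases (5.80%), against 2.15% of the weighted named and a background of 3.29%. They fell in 39 (0.33%, background 0.657%). From 0 h to 3 h 241 rose (2.06%, background 2.20%) and 121 fell (1.03%, background 1.27%). From 0 h to 6 h 753 rose (6.42%), against 3.40% and a background of 4.94%, and 109 fell (0.93%, background 1.76%).

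After 44 °C the falls prevailed at the later times. From 0 h to 1 h 152 rose (1.30%, background 1.58%) and 151 fell (1.29%, background 1.07%). From 0 h to 3 h 112 rose (0.96%, background 1.70%) and 502 fell (4.28%), against 2.03% of the weighted named and a background of 2.81%. From 0 h to 6 h 118 rose (1.01%, background 2.66%) and 415 fell (3.54%), against 2.36% and a background of 3.15%.

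The lists of both temperatures overlapped in part, and the overlap depends on list size. At 1, 3 and 6 h, 5.80%, 2.06% and 6.42% of the unnamed rose at 42 °C, and 1.30%, 0.96% and 1.01% at 44 °C. For the named these were 2.58%, 2.25% and 4.55%, and 1.66%, 1.90% and 3.15%. From 0 h to 1 h 70 unnamed probe sets rose at both. This is 10.3% of the 42 °C list and 46.1% of that of 44 °C, where named probe sets shared 20.4% and 31.6%. At 3 h the shared rises were 30, or 12.4% and 26.8%, where named probe sets shared 30.7% and 36.2%. At 6 h the shared rises were 44, or 5.8% and 37.3%, where named probe sets shared 29.0% and 41.9%. Opposite calls, a rise at 42 °C with a fall at 44 °C, were made for 21 unnamed probe sets at 1 h, 33 at 3 h and 67 at 6 h. These are 3.1%, 13.7% and 8.9% of the 42 °C rises, where 1.29%, 4.28% and 3.54% of all unnamed fell at 44 °C. Named probe sets had 21, 23 and 54, or 2.0%, 2.5% and 2.9% of their rises, where 0.98%, 2.36% and 3.04% of all named fell. The converse was called for 0, 0 and 5 unnamed and for 3, 9 and 19 named probe sets. Only 242398_x_at rose by at least 4-fold from 0 h at both temperatures at 3 and at 6 h, with log2 changes of 2.47 and 2.56 at 42 °C and 2.16 and 2.02 at 44 °C.

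The named probe sets with the course most like that of each unnamed one were found by Pearson's r of log2 signals over the 9 arrays, among 21931 probe sets with 1 symbol. As the best of so many, these values describe and are no evidence of a relation. For 241940_at the leading symbols were PIK3C3 (r = 0.97) and PPP1R15A (0.96), the latter a stress-induced partner of protein phosphatase 1. For 243489_at the nearest was NR4A2 (0.96), an immediate-early nuclear receptor. ASCC1 (0.92) was the second and DUSP1 (0.92), an immediate-early phosphatase, the third. For 236699_at the nearest were CLN8 (0.97) and SNAP23 (0.95), and for 243791_at SNAP23 (0.98) and TTC17 (0.95). A probe set of HSPD1, the mitochondrial chaperonin, was the third for both (0.95 and 0.95).

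Among the falling members, 242398_x_at was nearest to SEL1L3 (0.99) and ASNS (0.99), the latter asparagine synthetase. Probe set 238156_at was nearest to PRPF38B (0.97), which encodes a splicing factor, and 1558605_at to SUN2 (0.98), a protein of the inner nuclear membrane. Of the members higher at 44 °C at 0 h, 242172_at was nearest to SCAF4 (0.95) and 1562505_at to HNRNPA1 (0.98), an RNA-binding protein.

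The course of the group as a whole was also looked for among named probe sets, without matching for signal. With the median course of the sparse blocks, r exceeded 0.8 for 191 of 2375 unnamed probe sets of those blocks off the floor on at least 5 arrays (8.04%), which had helped to define that course. It did so for 230 of the 21931 named ones (1.05%). The median r was 0.44 for the former and 0.04 for the latter. Signal bears on this. At 42 °C and 1 h the median deviation was 0.09 for named probe sets of mean signal 25 to 50, and 0.00 for those above 100. As the unnamed helped to define the course and the named were not matched, the shares cannot tell how far the classes differ.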

How the data were processed

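RNA of 9 samples of U937 cells was hybridised to 1 array each. The deposited values are linear intensity values, MAS5 signals per the submitters' processing notes, and no version is given in the sources used here. Each array was scaled to a 2% trimmed mean of 100 over probe sets that are not controls, the floor was set at the median of all scaled values, and log2 was taken. Scaling acts on all probe sets alike and leaves differences in the shape of the distribution. The number of arrays, 1 per condition, limits the precision: no spread between replicates can be given, and groups were taken from the labels. With 1 array a condition, no test or p-value is given. A binomial interval over probe sets only sorts the ratios under other settings, and does not cover spread between arrays. Shares in named classes were weighted to the unnamed over 20 bins of mean log2 signal, a calculation tested on simulated data. Python 3.11.15, pandas 2.3.3, numpy 2.4.6, scipy 1.17.1 and matplotlib 3.10.9 were used.

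Symbols come from the platform annotation and coding status from the RefSeq gene table. Probe sequences, target positions and scanner files were not used here, so no sequence is printed. Which probe sets are members follows from the annotation alone. The choice to study this class, the lists and the class bounds were made with earlier results of these data known. Probe sets were named by rule: the 3 largest rises, falls and bounds of each comparison, the 5 brightest, up to 10 that moved on all 8 heated arrays, those past 4-fold against 0 h at both temperatures, and the named probe set nearest in course. As an exception made after values were seen, identifiers are printed only from sparsely annotated blocks, of those the results turn on. Alternatives were the scaling, the floor, the size rule, the baseline, the bins, the probe set types and the comparison class.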

Additional observations from a re-analysis of the deposited data

Results flagged for a closer look

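At 0 h and at 6 h, though not at 1 h or 3 h, the median of the unnamed probe sets had opposite signs at the 2 temperatures. At 0 h the median log2 fold against the control was -0.091 at 42 °C and 0.12 at 44 °C. At 6 h it was 0.19 at 42 °C and -0.073 at 44 °C. Named probe sets weighted to the same signal had the same signs, with -0.046 and 0.021 at 0 h and 0.029 and -0.072 at 6 h, so that at 44 °C and 6 h both classes had about the same value. Each value is a median over the unnamed probe sets off the floor on both arrays compared, all 4 use the same control array, and the difference was not tested, since each condition has 1 array.

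In data outside the counts, the control probe set for the 5′ part of the large ribosomal RNA had a scaled signal of 127 in the control and 11365 at 44 °C and 0 h.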

How the results depend on the processing

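The results recomputed were 24 counts of rises and falls (8 comparisons with the control and 4 of 44 against 42 °C), the 24 ratios of the unnamed share to the weighted named share, and the 8 medians of the log2 fold against the control. With plain _at probe sets only, all 24 counts stayed within 1.5 times, and all 24 ratios within the 95% exact binomial interval of the unnamed share (which covers counting over probe sets only). The 24 ratios did so too with 10 bins, with bins of the 2 arrays compared and with bins within identifier class. A few ratios whose interval lay on 1 side of 1 crossed to the other. That of 44 against 42 °C at 6 h (higher, 0.668) became 1.13 with the floor at 2 times the median and 1.01 against non-coding genes. With the size rule of log2 fold 2 the ratio of rises at 42 °C and 6 h turned from 1.46 to 0.767, and that of the lower at 44 against 42 °C and 1 h from 1.62 to 0.840. Values that moved otherwise follow in the order 0, 1, 3 and 6 h, and the cause was not tested. The exception is counts under another floor or size rule, which by construction let more or fewer probe sets pass. Shares over all probe sets are not given under those rules, so such counts alone do not set the unnamed apart. Ratios that did not move are left out. Rises and falls for 44 against 42 °C stand for higher and lower at 44 °C.

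With the floor at the 25th percentile, rises numbered 1311, 1941, 1528 and 2075 at 42 °C, then 1541, 1363, 965 and 951 at 44 °C, then 1810, 1020, 978 and 789 for 44 against 42 °C. Falls numbered 1416, 1015, 1391 and 1094 at 42 °C, then 996, 887, 1333 and 1395 at 44 °C, then 1113, 1414, 1532 and 2181 for 44 against 42 °C. Ratios for rises were 1.26 and 1.11 at 42 °C (1 and 6 h), then 1.14, 1.18, 0.953 and 0.853 at 44 °C, then 1.35 for 44 against 42 °C (0 h). For falls the ratios were 1.16 and 0.862 at 42 °C (0 and 6 h), then 1.12 at 44 °C (3 h), then 1.06 and 1.17 for 44 against 42 °C (1 and 6 h).

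With the floor at 2 times the median, rises numbered 39, 273, 80 and 168 at 42 °C, then 114, 102, 46 and 54 at 44 °C, then 243, 41, 29 and 27 for 44 against 42 °C. Falls numbered 149, 42, 105 and 57 at 42 °C, then 42, 29, 93 and 93 at 44 °C, then 26, 138, 31 and 188 for 44 against 42 °C. Ratios for rises were 3.55, 1.39 and 1.66 at 42 °C (1, 3 and 6 h), then 3.30 and 4.20 at 44 °C (0 and 1 h), then 3.52, 1.35 and 1.13 for 44 against 42 °C (0, 1 and 6 h). Ratios for falls were 1.01 and 1.58 at 44 °C (0 and 1 h), then 1.60, 2.59 and 3.28 for 44 against 42 °C (0, 1 and 6 h).

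With a size rule of log2 fold 2, rises numbered 11, 79, 23 and 14 at 42 °C, then 4, 11, 14 and 10 at 44 °C, then 36, 1, 0 and 2 for 44 against 42 °C. Falls numbered 16, 3, 5 and 3 at 42 °C, then 4, 1, 9 and 5 at 44 °C, then 6, 5, 1 and 7 for 44 against 42 °C. Ratios for rises were 2.81, 4.02, 1.42 and 0.767 at 42 °C, then 2.60, 4.26, 1.61 and 0.469 at 44 °C, then 5.26, 0.351, 0 and 0.951 for 44 against 42 °C. For falls the ratios were 2.09 and 0.529 at 42 °C (0 and 3 h), then 1.36, 1.57 and 2.54 at 44 °C (0, 1 and 3 h), then 1.85, 0.840 and 0.768 for 44 against 42 °C (0, 1 and 3 h).

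With quantile normalisation, rises numbered 87 for 44 against 42 °C (6 h). Ratios for rises were 2.71 and 1.68 at 42 °C (1 and 6 h), then 3.15 for 44 against 42 °C (0 h). Ratios for falls were 1.92 and 2.54 for 44 against 42 °C (1 and 6 h). The median log2 fold was -0.027, 0.061 and -0.017 at 42 °C (0, 1 and 3 h), then 0.037, -0.043 and -0.027 at 44 °C (1, 3 and 6 h).

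With the 0 h array as baseline, rises numbered 753 at 42 °C (6 h), then 152 at 44 °C (1 h). Falls numbered 39 and 121 at 42 °C (1 and 3 h), then 151, 502 and 415 at 44 °C (1, 3 and 6 h). Ratios for rises were 2.70, 1.26 and 1.89 at 42 °C (1, 3 and 6 h), then 1.05 and 0.752 at 44 °C (1 and 3 h). For falls the ratios were 0.471 and 0.875 at 42 °C (1 and 3 h), then 2.11 and 1.50 at 44 °C (3 and 6 h).

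Against non-coding genes, ratios for rises were 0.840, 1.83 and 1.75 at 42 °C (0, 1 and 6 h), then 1.65, 1.62, 0.943 and 0.813 at 44 °C, then 1.88 and 1.01 for 44 against 42 °C (0 and 6 h). Ratios for falls were 1.02 at 42 °C (0 h), then 0.633, 0.835 and 0.750 at 44 °C (0, 1 and 6 h), then 1.19 and 1.45 for 44 against 42 °C (1 and 6 h).

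For unnamed probe sets of sparse blocks, ratios for rises were 2.68 and 1.64 at 42 °C (1 and 6 h), then 2.44 and 2.72 at 44 °C (0 and 1 h), then 3.19 for 44 against 42 °C (0 h). The ratio for falls was 0.581 at 44 °C (0 h). The median log2 fold was 0.24 and 0.29 at 42 °C (1 and 6 h), then 0.22 and 0.14 at 44 °C (0 and 1 h).

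With both classes from sparse blocks, ratios for rises were 1.98 at 42 °C (1 h), then 2.50 for 44 against 42 °C (0 h). Ratios for falls were 0.597 at 44 °C (0 h), then 1.28 and 1.74 for 44 against 42 °C (1 and 6 h).

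Each condition has 1 array, so no spread between replicates can be given. No model over temperature and time was fitted, and no array was left out. Dim probe sets limit the counts: 48.1% of the unnamed were at the floor throughout, and the 7 ratios of rises that moved with the lower floor lay nearer to 1. The sparse-block settings and their bound were chosen after the annotation was seen and with earlier results of these data known. No paired analysis was possible because no result comes from a test and the labels give no replicate number that groups share. The arrays of 44 and 42 °C at the same time were compared as values.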

Other observations

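Dim probe sets of named genes in the same identifier blocks followed the unnamed in direction on the 8 heated arrays, at smaller size. These were 897 probe sets at least 4-fold dimmer than the brightest one of their gene. Their median deviation was -0.08 at 42 °C and 0 h, 0.10 at 42 °C and 1 h, 0.12 at 42 °C and 6 h, and 0.03 at 44 °C and 0 h. For 1794 such probe sets in the other blocks the values were 0.03, 0.05, 0.05 and 0.00. At 44 °C and 3 h and at 44 °C and 6 h both sets of blocks were alike, with -0.03 and -0.03 in the sparse and -0.03 and -0.03 in the others.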
